A study of Homo sapiens with 8 samples.

Results

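Glucose deprivation was examined in the control cells of a glioblastoma experiment: 2 libraries of EV cells in glucose-deprived medium were set against 2 libraries of EV cells in regular medium. These are 4 of the 8 libraries in the deposited expression table. Of the 13730 genes in that table, the 13057 whose log2 CPM averaged 0 or more over all 8 libraries were tested, where CPM is counts scaled to library size. The study asked how inhibition of thioredoxin reductase 1 (TrxR1, gene TXNRD1) and loss of glucose act together on tumour cells. All 8 libraries came from LN229-TAZ(4SA), a derivative of the established human glioblastoma line LN229 named for the TAZ(4SA) construct, so EV cells and TrxR1 knockout (KO) cells both carry it. EV is the label of the control. Regular medium was Dulbecco's modified Eagle's medium with 10% fetal bovine serum and antibiotics, and the labels give neither the length of the deprivation nor the makeup of the deprived medium. The 2 deprived columns are headed GlcN, letters that can also stand for glucosamine; they were taken as the libraries labelled Glu-. The labels do not say whether the 2 libraries of a group came from separate cultures or whether EV cells are 1 clone, so each p-value reflects only how far these libraries differ.

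Cells without glucose lose fuel for glycolysis and also the sugar from which N-linked glycans are built. Misfolded glycoproteins in the endoplasmic reticulum (ER) activate the unfolded protein response, whose sensors PERK, IRE1 and ATF6 raise chaperones and degradation factors. PERK and other eIF2 kinases feed the integrated stress response, in which translation of ATF4 increases and ATF4 raises genes of amino acid supply together with DDIT3 (CHOP). High glucose is sensed through the MondoA and ChREBP factors, which drive TXNIP and ARRDC4.

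The 4 EV libraries held between 70083018 and 100715056 reads in the table. Over genes, the log2 values of the 2 libraries of one medium correlated with r of 0.9974 and 0.9983, and those of different media with r between 0.9578 and 0.9594. The 2 libraries of no group agreed within sampling noise. The 10 genes with most reads took 5.13% and 5.21% of the reads in regular medium and 6.63% and 6.596% in deprived medium. Summed CPM of the 12 glioma and mesenchymal markers found was 8168 and 8101 in regular medium and 8655 and 8631 in deprived medium. GFAP, a defining astrocyte marker, was at 0.708 and 0.802 CPM in regular medium and 1.408 and 1.119 CPM in deprived medium. CHI3L1 was not among the genes analysed, while VIM, CD44, EGFR and TNC were present. Of markers of other cells, the 6 endothelial genes listed were not among the genes analysed, and only 2 of 7 leukocyte markers were. These are bulk RNA measurements, in which fewer cells of a kind and less RNA per cell cannot be told apart.

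Glucose deprivation changed most of the measured transcriptome by small amounts and a smaller set of genes by a large amount. In deprived EV cells 4902 genes were called higher (37.5% of those tested) and 5053 lower (38.7%), at a Benjamini-Hochberg adjusted p under 0.05 in limma. Each fold change rests on 2 libraries per medium, and SE is its standard error in that fit. A call of at least 2-fold was reached by 783 genes upward (6%) and 454 downward (3.48%), and a change of at least 4-fold by 129 upward and 26 downward. The groups did not overlap in any of the 9955 called genes, the 1237 called at 2-fold or more included. Separate groups therefore add nothing to a call. The median log2 fold change over all genes was -0.011. These percentages are the background for the gene groups below, and the 2-fold shares are the more selective.

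**Figure D1:**
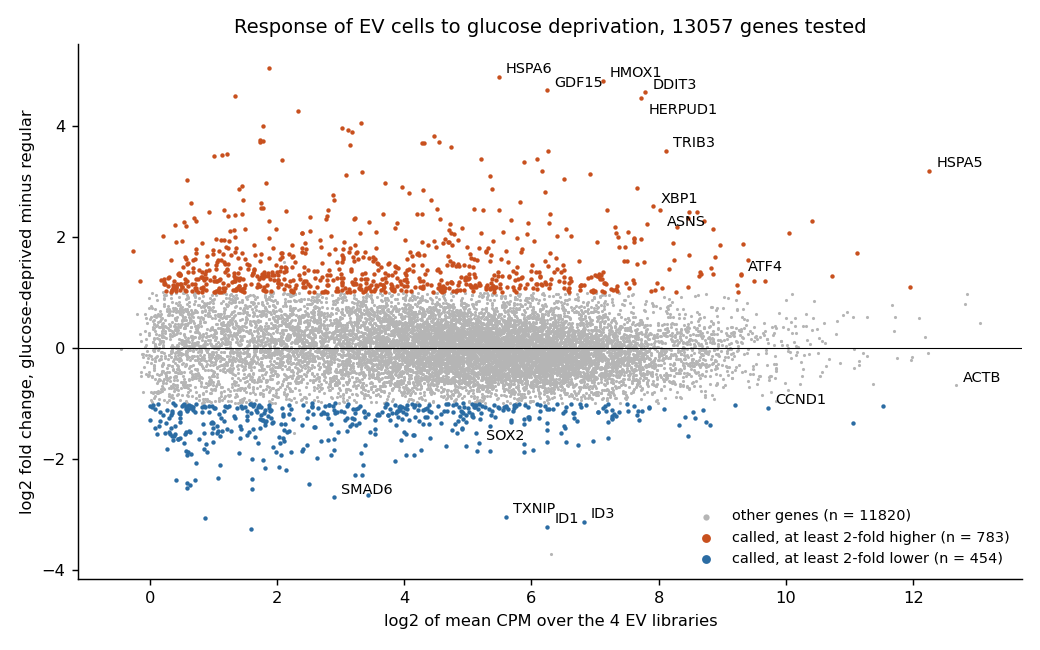
Each point is 1 of 13057 genes: the horizontal axis is the log2 of its mean CPM over the 4 EV libraries and the vertical axis the log2 fold change, glucose-deprived minus regular. The 783 genes called at least 2-fold higher reach above 4 at GDF15, HMOX1, DDIT3 and HERPUD1, and the 454 lower genes reach below -3 at TXNIP, ID1 and ID3.

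The largest rises were taken among called genes with at least 10 CPM in the higher group and no overlap between the media. They included stress genes of several compartments. HSPA6, an inducible cytosolic HSP70 chaperone at chr1:161524540-161526894 (GRCh38), stood at 2.96 and 2.88 CPM in regular medium and 92.8 and 80.3 CPM in glucose-deprived medium, a log2 fold change of 4.88 ± 0.077 (SE, adjusted p = 8.14e-12). HMOX1, heme oxygenase 1 (chr22:35381096-35394207), stood at 9.31 and 9.80 CPM in regular medium and 277.9 and 258.8 CPM in glucose-deprived medium, a log2 change of 4.81 ± 0.049 (SE, adjusted p = 5.42e-13). HSPA6 was low in regular medium. The near-identical HSPA1A and HSPA1B were not analysed here, and reads shared with them cannot be told apart. GDF15, a secreted stress cytokine, went from 6.24 and 5.45 to 154.2 and 138.0 CPM, a log2 change of 4.64 ± 0.14 (SE, adjusted p = 6.04e-10). HERPUD1, an ER membrane protein of ER-associated degradation, and DDIT3, the transcription factor CHOP, completed the 5 largest. Less familiar genes in the same top 12 were BEST1, an anion channel gene (4.04), FRY (3.95), LURAP1L (3.81), PAPPA2, a protease of IGF-binding proteins (3.69), the pseudogene NMRAL2P (3.92) and the noncoding LINC01583 (3.88). Each of those 6 was below 3 CPM in both regular libraries and above 14 CPM in both deprived libraries. CTH, cystathionine gamma-lyase of cysteine synthesis, went from 3.51 and 3.11 to 43.1 and 43.5 CPM.

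The largest falls, taken under the same conditions, were led by targets of bone morphogenetic protein (BMP) signalling and by TXNIP. ID1, an inhibitor of helix-loop-helix factors at chr20:31605289-31606510, stood at 140.8 and 133.5 CPM in regular medium and 14.4 and 14.9 CPM in glucose-deprived medium, a log2 change of -3.22 ± 0.12 (SE, adjusted p = 3.19e-09). ID3, of the same family, went from 201.2 and 204.8 to 21.00 and 25.7 CPM. SMAD6, an inhibitory SMAD, went from 13.2 and 12.5 to 1.90 and 2.05 CPM. NOXO1, a NADPH oxidase organizer, went from 18.6 and 18.8 to 2.97 and 2.98 CPM. The other 8 genes, TXNIP included, had log2 changes from -3.04 to -1.92, among them AMH (-2.30), DOK3 (-2.29), the muscle phosphoglycerate mutase PGAM2 (-2.11), MYPN (-2.03), WNT5B (-1.92) and RGS4, a regulator of G-protein signalling. NME2, a nucleoside diphosphate kinase whose gene overlaps a readthrough locus with NME1, went from 29.6 and 26.6 to 8.47 and 6.33 CPM with the widest error of the 12, a log2 change of -1.93 ± 0.41 (SE, adjusted p = 0.00143).

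Genes known to report glucose availability mostly fell. TXNIP, which binds thioredoxin and restrains glucose uptake, lies at chr1:145992435-145996579 and stood at 85.5 and 87.1 CPM in regular medium and 11.04 and 9.91 CPM in glucose-deprived medium. Its log2 change was -3.04 ± 0.057 (SE, adjusted p = 2.23e-11), with no overlap between the media, as in every called gene. ARRDC4, a related arrestin, went from 6.49 and 6.07 to 2.23 and 2.62 CPM, a log2 change of -1.37 ± 0.12 (SE, adjusted p = 1.72e-06). KLF10, a further glucose-responsive transcription factor, fell by 0.77 on the log2 scale. ARRDC3, an arrestin of the same family, moved the other way, from 19.1 and 18.1 to 44.3 and 42.8 CPM. Of 7 tested genes in this group 5 were called lower (71.4% against 38.7% of all genes) and 1 higher.

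The genes of glucose uptake and breakdown split. SLC2A3 (GLUT3), a high-affinity glucose transporter, stood at 4.72 and 4.66 CPM in regular medium and 13.9 and 14 CPM in glucose-deprived medium, a log2 change of 1.57 ± 0.062 (SE, adjusted p = 5.59e-09). SLC2A1 (GLUT1) rose less, from 340.2 and 339.4 to 442.4 and 433.9 CPM. HK2, the hexokinase of the first step, went from 130.8 and 131.1 to 203.2 and 194.2 CPM. The groups were separate in all 3, as in every called gene. The rise of SLC2A3 was the largest of the 3. Some later steps went down. LDHA, lactate dehydrogenase A, went from 1337 and 1310.1 to 771.8 and 789.4 CPM (-0.76). Picked after their values were seen, PGAM1, phosphoglycerate mutase, changed by -0.86 and SLC16A3, the lactate exporter MCT4, by -1.29. Other later-step genes were called higher and some early-step genes lower, so the split did not follow the order of the pathway. Over the 30 tested genes of uptake and glycolysis 11 were called higher and 15 lower, with a median of -0.16 against -0.011 for all genes, shares close to the background. PDK4, a kinase that blocks entry of pyruvate into the TCA cycle, was low in all libraries and went from 2.21 and 2.21 to 5.51 and 5.61 CPM (picked after its value was seen).

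Side branches of glucose metabolism also moved. In the hexosamine pathway, which makes UDP-GlcNAc for glycosylation, GFPT1, the first and rate-limiting enzyme, went from 84.1 and 81.7 to 320.0 and 299.7 CPM, a log2 change of 1.90 ± 0.051 (SE, adjusted p = 3.53e-10). PGM3, a later enzyme of that pathway, changed by 0.98 and OGT, which places O-GlcNAc on proteins, by 0.73. Other enzymes of the route, GNPNAT1 (-0.20) and UAP1 (-0.26), picked after their values were seen, were slightly lower. Of 13 tested genes of the pathway 9 were higher (69.2% against 37.5% of all genes) and 4 lower. In glycogen metabolism PGM1 (0.65) and the phosphorylase PYGB (0.49) rose and the synthase GYS1 fell (-0.65). Of 14 tested glycogen genes 5 were higher and 5 lower; the lower count was 1 without library a of either EV group and 3 without library b of either EV group or without the variance trend. Of the 18 tested genes of the pentose phosphate pathway and NADPH supply 11 were higher and 5 lower, with a median of 0.28. H6PD, an NADPH-producing enzyme of the ER, rose by 0.97 on the log2 scale. IDH1, cytosolic NADP isocitrate dehydrogenase, went from 48.9 and 48.5 to 110.1 and 105.1 CPM, and ALDH1L2, a mitochondrial folate enzyme that yields NADPH, went from 12.5 and 11.8 to 144.2 and 138.7 CPM, a log2 change of 3.54 ± 0.046 (SE, adjusted p = 2.93e-12).

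Mitochondrial fuel genes showed no common direction. Among 36 tested genes of pyruvate, TCA cycle and glutamine metabolism 16 were higher and 13 lower, with a median of 0.016. PCK2, the mitochondrial enzyme that makes phosphoenolpyruvate from oxaloacetate, went from 19.3 and 18.04 to 130.9 and 129.6 CPM, a log2 change of 2.80 ± 0.043 (SE, adjusted p = 6.92e-12). PC, pyruvate carboxylase, rose by 1.08 on the log2 scale. Of 58 respiratory chain and ATP synthase subunits 12 were higher and 23 lower, none by 2-fold except 1 lower without library b of the regular EV group, and the median was -0.070. CYCS, cytochrome c (-0.47), and the ATP synthase c-subunit genes ATP5MC1 (-0.53) and ATP5MC3 (-0.48) were the most firmly lower.

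The promoters of 5 genes are shown before the stress genes because each holds a motif of the ER stress or ATF4 type next to a gene that rose strongly. The sequences are RefSeq windows on GRCh38.p14, upstream of the start site and read on the strand of the gene. Capitals mark the matched motif. In HSPA5 and XBP1 it is the ER stress element, CCAAT and CCACG with 9 bases between them. In the other 3 it is TGATGNAAN or its reverse complement, the C/EBP-ATF type bound by ATF4 with a C/EBP partner. The motif begins 66 bases upstream of the start in HSPA5 (chr9:125241344-125241469, minus strand) and 52 in XBP1 (chr22:28800570-28800681, minus strand). It begins 177 bases upstream in HERPUD1 (chr16:56931905-56932033, plus strand), 210 in CHAC1 (chr15:40953221-40953329, plus strand) and 68 in ASNS (chr7:97872409-97872536, minus strand).
HSPA5: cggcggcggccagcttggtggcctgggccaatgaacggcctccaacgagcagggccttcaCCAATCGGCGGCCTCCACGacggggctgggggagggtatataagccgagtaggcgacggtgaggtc
XBP1: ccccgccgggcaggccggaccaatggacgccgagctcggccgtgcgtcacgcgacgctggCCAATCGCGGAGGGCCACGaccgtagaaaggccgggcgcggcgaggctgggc
HERPUD1: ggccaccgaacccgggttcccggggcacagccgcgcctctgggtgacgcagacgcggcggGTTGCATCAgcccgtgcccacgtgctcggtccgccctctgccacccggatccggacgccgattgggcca
CHAC1: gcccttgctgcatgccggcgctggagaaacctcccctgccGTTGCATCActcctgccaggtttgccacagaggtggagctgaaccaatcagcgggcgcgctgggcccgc
ASNS: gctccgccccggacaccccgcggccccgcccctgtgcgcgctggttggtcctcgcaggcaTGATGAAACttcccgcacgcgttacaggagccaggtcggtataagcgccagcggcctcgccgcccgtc

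These motifs were counted on both strands in 1 window per gene, 250 bases before to 50 after the start, for the 10461 tested genes with a window. The ER stress element was found in 14 of them (0.134%), in 10 of the 606 windows of genes called at least 2-fold higher (1.65%) and in 0 of the 348 called at least 2-fold lower. Among the 25 windows of ER chaperones and folding enzymes 6 held it. The C/EBP-ATF type was in 175 of the 10461 windows (1.67%), in 25 of the 606 (4.13%) and in 5 of the 348 (1.44%). Of the 15 windows of amino acid and one-carbon enzymes 4 held it. The E-box CACGTG was in 10.2% of tested windows, 12.05% of the higher and 10.1% of the lower, and the CRE-like GTGACGT in 6.39%, 6.27% and 2.30%. Over the windows of all 27305 genes with a RefSeq window, tested or not, the 4 shares, in the same order, were 0.0806%, 3.67%, 7.43% and 4.05%. A match is a description of letters in a window, matches of different motifs may overlap, and none was tested for binding.

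The integrated stress response genes were among the strongest risers. DDIT3 (chr12:57516588-57520517) stood at 17.4 and 17.6 CPM in regular medium and 435.4 and 416.6 CPM in glucose-deprived medium, a log2 change of 4.60 ± 0.042 (SE, adjusted p = 2.34e-13). ATF4, the central activator, went from 353.5 and 361.4 to 913.0 and 882.0 CPM, a log2 change of 1.33 ± 0.034 (SE, adjusted p = 2.29e-10). The deprived libraries of both genes were above the regular ones, as in every gene called higher. The transcript rise of ATF4 was smaller than that of its target DDIT3. TRIB3, a pseudokinase that dampens this pathway, went from 43.9 and 43.5 to 524.3 and 497.0 CPM (3.55). CHAC1, which degrades glutathione, went from 10.8 and 10.2 to 108.6 and 106.6 CPM (3.35), and PPP1R15A (GADD34), which brings a phosphatase to eIF2, went from 111.6 and 109.0 to 621.5 and 582.2 CPM (2.45). Of 16 tested regulators 11 were called higher, 9 of them by at least 2-fold, and 3 lower, with a median of 1.41. Members picked after their values were seen were the bZIP factors ATF3 (2.30) and CEBPB (1.78), the eIF2 kinase gene EIF2AK3, which encodes PERK (2.09), and ATF5, a bZIP factor that fell, from 77.4 and 81.96 to 41.5 and 38.9 CPM. Without library a of either EV group ATF5 passed -1, so 1 regulator was then called at least 2-fold lower.

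**Figure D2:**
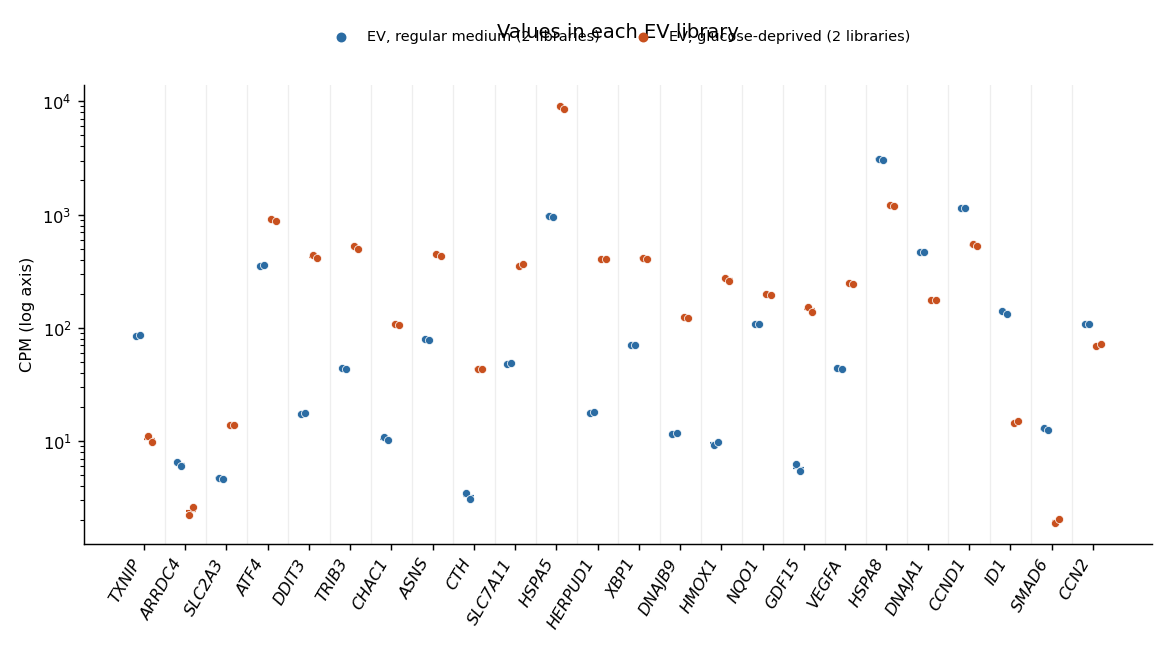
The vertical log axis gives CPM for 24 genes; blue points are the 2 EV libraries in regular medium, orange points the 2 in glucose-deprived medium, and short lines their means. The 2 libraries of a medium nearly coincide for each gene, and TXNIP, HSPA8, CCND1 and ID1 fell while DDIT3, HERPUD1 and HMOX1 rose by more than 10 times.

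Amino acid supply rose with them. ASNS, asparagine synthetase, stood at 79.4 and 78.8 CPM in regular medium and 451.6 and 430.7 CPM in glucose-deprived medium, a log2 change of 2.48 ± 0.042 (SE, adjusted p = 1.21e-11). In serine and one-carbon synthesis PHGDH, the first enzyme of serine synthesis, went from 152.2 and 149.6 to 459.2 and 447.8 CPM (1.59) and MTHFD2, a mitochondrial folate enzyme, from 127.3 and 126.3 to 481.9 and 460.2 CPM (1.89). Picked after their values were seen, the serine enzymes PSAT1 (1.56) and SHMT2 (1.43) rose too, and CBS, the transsulfuration enzyme before CTH, went from 1.77 and 1.91 to 15.4 and 10.2 CPM. Over 22 tested enzymes 16 were higher, 10 by at least 2-fold, and 3 lower, with a median of 0.97. The lower count was 5 without library a of the deprived KO group or with the EV libraries fitted alone.

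The transporters that bring amino acids in were mostly higher. SLC7A11, the cystine importer of system xc-, stood at 48.2 and 49.3 CPM in regular medium and 351.2 and 363.5 CPM in glucose-deprived medium, a log2 change of 2.87 ± 0.041 (SE, adjusted p = 4.36e-12). SLC3A2, its heavy chain shared with other transporters, rose less, from 382.2 and 372.8 to 842.2 and 806.9 CPM. SLC1A4, a carrier of neutral amino acids, went from 280.0 and 274.1 to 1009 and 1005 CPM (1.86) and SLC6A9, a glycine transporter, from 13.3 and 13.9 to 75.8 and 76.1 CPM (2.48). SLC1A3, a glial glutamate transporter picked after its value was seen, fell from 11.3 and 12.1 to 2.86 and 3.67 CPM. Of 19 tested transporters 13 were higher (68.4% against 37.5% of all genes), 7 by 2-fold (36.8% against 6%), and 5 lower. Fewer were lower without library a of the deprived EV group.

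The enzymes that charge transfer RNA differed by compartment. Among the cytosolic aminoacyl-tRNA synthetases AARS1, for alanine, went from 122.8 and 118.2 to 670.2 and 643.8 CPM (2.45), WARS1, for tryptophan, from 119.3 and 114.4 to 603.0 and 577.5 CPM (2.34) and SARS1, for serine, from 170.3 and 171.2 to 551.4 and 538.1 CPM (1.67). Of the 22 tested 14 were higher, 7 by 2-fold, 6 were lower, and the median was 0.36. EEF1E1, a scaffold protein of the synthetase complex, was the lowest at -0.90 (picked after its value was seen). Of the 16 mitochondrial enzymes 7 were higher and 7 lower, none by 2-fold, between -0.49 for LARS2 and 0.94 for WARS2, with RARS2 at 0.55. The difference between the compartments was not tested.

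ER folding genes rose almost without exception. HSPA5 (BiP), the main ER chaperone at chr9:125234853-125241343, stood at 975.1 and 958.0 CPM in regular medium and 9041 and 8551 CPM in glucose-deprived medium, a log2 change of 3.19 ± 0.039 (SE, adjusted p = 2.39e-12). DNAJB9, a BiP co-chaperone, went from 11.7 and 11.7 to 125.5 and 122.1 CPM (3.40) and MANF, a secreted ER stress factor, from 79.8 and 77.6 to 372.9 and 366.9 CPM (2.23). Deprived and regular libraries were separate in all 3, as in every called gene. Of 27 tested chaperones and folding enzymes 25 were called higher and 0 lower, 21 of them by at least 2-fold (77.8% of the group against 6% of all genes), and the median was 1.30. Picked after their values were seen, the BiP exchange factor HYOU1 (2.28), the BiP partner SDF2L1 (2.25) and the oxidase ERO1B (3.10) were among the highest. The 2 not called were ERO1A, also an ER oxidase, at 94.5 and 93.7 CPM in regular medium and 103.9 and 100.1 CPM in glucose-deprived medium (adjusted p = 0.0578) and TXNDC5, a disulfide isomerase, at 15.8 and 14.7 CPM in regular medium and 16.3 and 15.2 CPM in glucose-deprived medium (adjusted p = 0.531). ERO1A was called when the EV libraries were fitted alone, under median-of-ratios scaling and without any 1 of the KO libraries, with adjusted p between 0.00164 and 0.0454.

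Sensors and degradation factors of the ER rose as well, less uniformly. HERPUD1 stood at 17.6 and 18.1 CPM in regular medium and 409.1 and 402.5 CPM in glucose-deprived medium, a log2 change of 4.51 ± 0.039 (SE, adjusted p = 2.34e-13). XBP1, the factor spliced by IRE1, went from 70.8 and 70.2 to 417.7 and 408.5 CPM (2.55), and EDEM1, which hands misfolded glycoproteins to degradation, from 86.1 and 86.6 to 343.2 and 331.3 CPM (1.96). ERN1, which encodes IRE1 and was picked after its value was seen, went from 5.92 and 6.29 to 32.8 and 32.5 CPM. Of the 26 tested 21 were higher, 10 by 2-fold, and 4 lower. The table counts whole genes, so splicing of XBP1 was not measured here.

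Chaperones outside the ER went the other way. HSPA8, the constitutive cytosolic HSP70, stood at 3073 and 3052 CPM in regular medium and 1209.9 and 1190.1 CPM in glucose-deprived medium, a log2 change of -1.35 ± 0.035 (SE, adjusted p = 2.81e-10). DNAJA1, one of its J-domain partners, went from 463.2 and 466.8 to 175.6 and 177.6 CPM (-1.40). Picked after their values were seen, HSP90AA1, an HSP90 chaperone, went from 3239 and 3212 to 2040.0 and 2055 CPM, and HSPB1, a small heat shock protein, from 293.7 and 289.6 to 132.1 and 134.7 CPM. Of 24 tested genes 19 were called lower and 5 higher, with a median of -0.62. The list also holds the mitochondrial chaperonin genes HSPD1 (-0.28) and HSPE1 (-0.95), both picked after their values were seen and both among the lower. The 5 higher were HSPA6 (4.88), the J-domain gene DNAJB1 (0.83), the HSP70 co-chaperone BAG3 (0.49), DNAJB4 (0.31) and the heat shock factor HSF2 (0.17), the last 4 picked after their values were seen. HSF2 lost its call without library b of the deprived EV group or without either regular EV library, with adjusted p between 0.0671 and 0.131. HSPA6 was the only one of the 24 that rose by 2-fold or more, while 4 fell by at least 2-fold: DNAJA1, HSPA8, HSPB1 and CHORDC1 (-1.24), an HSP90 partner.

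**Figure D3:**
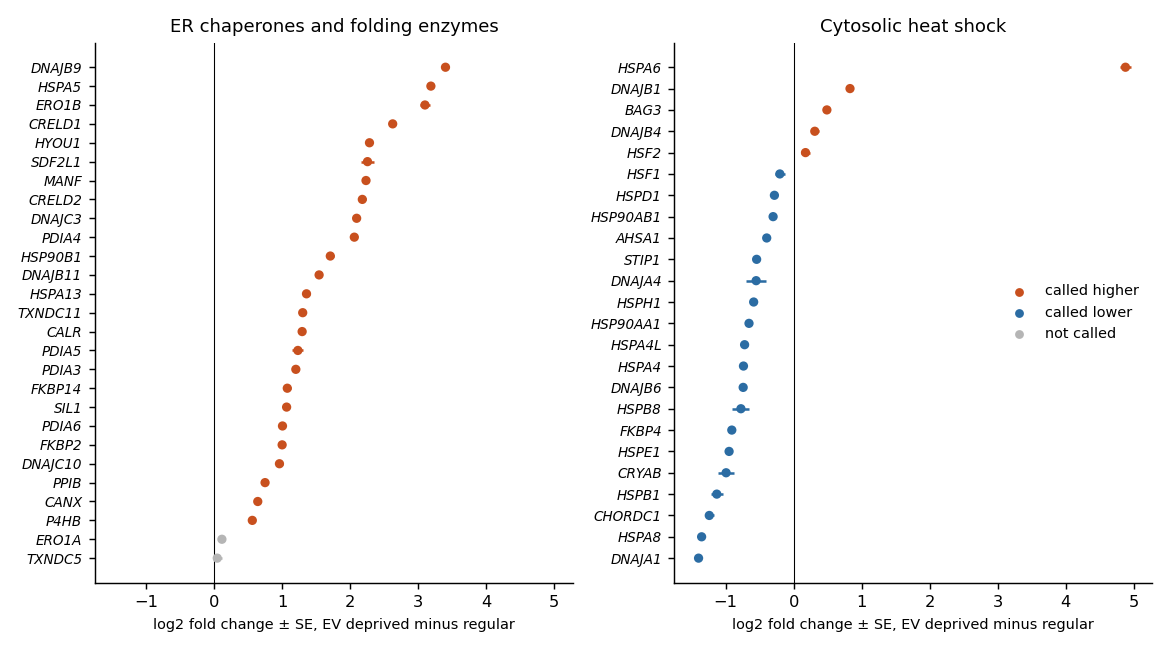
Log2 fold changes, EV glucose-deprived minus regular, with bars of 1 SE for the 27 tested ER chaperones and folding enzymes (left) and the 24 tested genes of the cytosolic heat shock list, with the mitochondrial HSPD1 and HSPE1 among them (right). On the left 25 genes were called higher and 2 were not called; on the right 19 were called lower, and HSPA6 at 4.88 lies far above the rest.

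Nutrient-sensing and lysosomal genes rose in part. SESN2, a sestrin that restrains mTORC1, stood at 25.5 and 24.4 CPM in regular medium and 222.4 and 214.2 CPM in glucose-deprived medium, a log2 change of 3.13 ± 0.045 (SE, adjusted p = 4.36e-12). DDIT4 (REDD1), a further mTORC1 inhibitor, went from 79.9 and 77.02 to 282.0 and 271.5 CPM (1.82), and PRKAB2, an AMPK subunit, from 81.02 and 79.6 to 193.2 and 188.3 CPM (1.25). Of 32 tested genes of this group 18 were higher (56.2% against 37.5% of all genes) and 5 lower. In autophagy WIPI1, which helps form the autophagosome, went from 13.9 and 14.5 to 133.7 and 124.4 CPM (3.18), the receptor SQSTM1 (p62) from 338.3 and 338.1 to 1029 and 1001 CPM (1.59), and MAP1LC3B (LC3B) changed by 1.18. Of 45 autophagy and lysosome genes 30 were higher (66.7% against 37.5% of all genes) and 6 lower, with a median of 0.21. Fewer were lower without library a of the regular EV group.

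Targets of NRF2, the activator of antioxidant genes, were mostly higher. NQO1, a quinone reductase, stood at 107.9 and 107.7 CPM in regular medium and 201.0 and 196.5 CPM in glucose-deprived medium, a log2 change of 0.88 ± 0.031 (SE, adjusted p = 2.63e-09). TXNRD1, the gene of TrxR1, went from 262.8 and 260.6 to 508.7 and 492.7 CPM in these EV cells (0.94). The ferritin chains FTL (1.31) and FTH1 (1.21), picked after their values were seen, rose as well; both have processed pseudogenes that can share reads. Of 37 tested targets 31 were higher, 15 by at least 2-fold (40.5% against 6%), and 5 lower, with a median of 0.82. The lower count was 3 without library b of the deprived EV group and 2 without library a of the regular EV group. HMOX1, SLC7A11, SQSTM1 and NMRAL2P belong to this list, and SLC7A11 is also a known target of ATF4. Of 40 tested genes of the wider thioredoxin, peroxiredoxin and glutathione system 21 were higher (52.5% against 37.5%) and 10 lower (25.0% against 38.7%). The median was 0.12, and the share called at least 2-fold higher was 5.00% against 6%. GLRX, a glutaredoxin, went from 3.89 and 3.65 to 18.5 and 17.8 CPM. PRDX1, an abundant peroxiredoxin picked after its value was seen, fell from 362.8 and 355.7 to 228.9 and 232.4 CPM. The log2 change of PRDX1, -0.64, was also the lowest value in the NRF2 list.

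Lipid synthesis changed unevenly. HMGCS1, an early enzyme of cholesterol synthesis, went from 32.5 and 34.2 to 52.7 and 52.8 CPM (0.66). STARD4, a sterol carrier (1.73), and ABCA1, a cholesterol exporter (1.38), rose by more than 2-fold. Of genes picked after their values were seen, INSIG1, a sterol-responsive inhibitor, changed by 0.89, and SQLE, squalene epoxidase, was at 35.8 and 34.95 CPM in regular medium and 36.4 and 35.1 CPM in glucose-deprived medium and was not called (adjusted p = 0.764). Over 28 cholesterol genes 14 were higher and 7 lower, and over 21 fatty acid genes 10 were higher and 9 lower, counts near the background. In the fatty acid list the acyl-CoA synthetase ACSL1 was at 0.92, the triglyceride enzyme DGAT2 at -1.08 and the elongase ELOVL1 at -0.60.

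Ribosomal proteins and the machinery that builds ribosomes moved apart. Of 76 cytosolic ribosomal protein genes 60 were called higher (78.9% against 37.5% of all genes) and 5 lower, or 3 lower without library a of the deprived or of the regular EV group. The rises were small: the median was 0.25, none of them reached 2-fold, and RPL3, of the large subunit, went from 1007 and 1013 to 1559 and 1513 CPM (0.60). RPL10A (0.38) and RPL13A (0.38), both of the large subunit, were also higher. Downward, 1 gene of the list was called at least 2-fold lower without library b of the regular EV group or with no expression filter, and none otherwise. The lowest log2 change in this list, -3.72, was not called and was also the lowest of all 13057 genes tested. Ribosomal protein genes have many processed copies, and the counting of shared reads is not given in the sources used here. Of 50 genes of ribosome biogenesis 37 were lower (74.0% against 38.7%) and 5 higher, with a median of -0.27. NOP56, of the snoRNP core, went from 397.1 and 403.3 to 249.8 and 244.7 CPM, and UTP20 and RRP1B, nucleolar processing factors, changed by -0.76 and -0.91.

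Cell division genes were mostly lower. CCND1, cyclin D1, stood at 1144 and 1139 CPM in regular medium and 548.5 and 530.3 CPM in glucose-deprived medium, a log2 change of -1.08 ± 0.033 (SE, adjusted p = 8.13e-10). CCNB1, the mitotic cyclin, went from 463.1 and 464.7 to 305.4 and 310.0 CPM (-0.59), and AURKA, a spindle kinase, from 367.4 and 371.6 to 168.4 and 176.5 CPM (-1.10). BIRC5, survivin, and CCNA2, cyclin A2, changed by -0.78 and -0.62. Of 46 mitosis genes 29 were lower (63.0% against 38.7% of all genes) and 6 higher, with a median of -0.19. With the EV libraries fitted alone 12 were higher. The replicative helicase genes MCM2 (-0.42) and MCM6 (-0.84) and UHRF1, which maintains DNA methylation (from 225.5 and 221.9 to 73.8 and 70.8 CPM), fell. CDC6, a licensing factor in the same list, rose from 116.3 and 115.8 to 278.2 and 262.8 CPM. Of 49 replication genes 35 were lower (71.4% against 38.7% of all genes) and 5 higher, with a median of -0.42.

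Regulators of G1 and of cell cycle arrest rose in part. Among 22 genes of G1 control 12 were higher (54.5% against 37.5% of all genes) and 4 lower. MXD1, a MYC antagonist, went from 10.3 and 9.97 to 73.9 and 73.3 CPM (2.86), and CCNG2, an atypical cyclin linked to arrest, from 11.7 and 11.1 to 64.99 and 62.97 CPM (2.48). MYC itself, picked after its value was seen, rose from 43.7 and 45.8 to 83.8 and 83.7 CPM. Of 27 p53 targets 18 were higher (66.7% against 37.5% of all genes), 5 by 2-fold, and 5 lower. GDF15, SESN2 and TNFRSF10B are on that list and are also raised by ATF4 or CHOP. TNFRSF10B, the TRAIL receptor DR5, went from 179.8 and 177.6 to 307.6 and 301.4 CPM (0.77). Of 30 genes of the BCL2 family and death receptors 14 were higher and 15 lower, near the background. The death-promoting BH3 genes PMAIP1 (NOXA) and BMF changed by 0.74 and 1.39, and BBC3 (PUMA), picked after its value was seen, was low throughout and went from 2.60 and 2.41 to 7.35 and 6.53 CPM.

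Immediate early and inflammatory genes rose in part. EGR1 went from 23.7 and 23.9 to 96.5 and 100.01 CPM (2.04), MAFF, a small MAF factor, changed by 1.47 and the phosphatase DUSP5 by 1.13. FOS, picked after its value was seen, rose from 3.91 and 4.11 to 12.6 and 12.2 CPM, whereas its AP-1 partners JUN (-0.52) and JUNB (-0.74), picked likewise, fell. Of 31 such genes 17 were higher (54.8% against 37.5% of all genes), 8 by 2-fold, and 7 lower. PTGS2 (COX-2) stood at 2.77 and 2.82 CPM in regular medium and 38.7 and 33.6 CPM in glucose-deprived medium, a log2 change of 3.68 ± 0.080 (SE, adjusted p = 7.63e-11). IL1A went from 2.78 and 3.08 to 24.3 and 21.7 CPM and LIF, a cytokine of the IL-6 family, from 226.3 and 218.8 to 582.9 and 570.9 CPM. CXCL8, the neutrophil attractant picked after its value was seen, went from 37.7 and 35.1 to 129.8 and 109.7 CPM. Of 27 NF-kB regulators and outputs 19 were higher (70.4% against 37.5% of all genes), 7 by 2-fold (25.9% against 6%), and 7 lower. Among 22 interferon response genes 13 were higher (59.1% against 37.5% of all genes) and 3 lower. The lower count fell without library a of either EV group and rose without library b of the regular one. IRF1 (1.14), STAT2 (0.97) and ISG20 (1.22) had the smallest adjusted p of this list.

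Secreted and hypoxia-linked factors included some of the strongest responses. VEGFA, the angiogenic factor, stood at 44.6 and 43.7 CPM in regular medium and 250.1 and 242.9 CPM in glucose-deprived medium, a log2 change of 2.48 ± 0.035 (SE, adjusted p = 4.36e-12). STC2, stanniocalcin 2, went from 168.9 and 172.7 to 767.3 and 742.0 CPM (2.14). FGF5, picked after its value was seen, fell from 5.06 and 5.33 to 0.987 and 0.775 CPM, below 1 CPM in both deprived libraries. Of 23 secreted factors 8 were higher, or 5 without library a of the deprived EV group, and 10 lower. Among 20 HIF targets 11 were higher, 3 by at least 2-fold, and 5 lower, 1 by at least 2-fold, with a median of 0.16. The 3 were VEGFA, NDRG1 (2.41) and MXI1, a MYC antagonist (1.89). Of 19 circadian clock genes 15 were higher (78.9% against 37.5% of all genes) and 3 lower. NFIL3, a repressor of the clock, went from 9.32 and 9.16 to 43.3 and 44.02 CPM (2.24), and the clock genes NR1D1 and PER1 changed by 1.13 and 1.08.

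BMP outputs fell beyond ID1, ID3 and SMAD6. BAMBI, a decoy receptor, went from 98.3 and 95.04 to 43.7 and 43.7 CPM (-1.14), and ATOH8, a BMP target picked after its value was seen, from 23.3 and 23.7 to 6.90 and 8.02 CPM (-1.66). BMP2, a ligand of the pathway also picked after its value was seen, rose from 16.3 and 16.2 to 52.4 and 47.2 CPM. Of 22 tested genes 15 were lower and 7 higher, 5 and 5 of them by at least 2-fold. TGIF1, a repressor of TGF-beta signalling (1.35), was among the higher ones.

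TAZ, the protein of WWTR1 that these cells carry as a construct, acts with TEAD factors. WWTR1 stood at 362.3 and 360.9 CPM in regular medium and 323.9 and 341.6 CPM in glucose-deprived medium, a log2 change of -0.12 ± 0.035 (SE, adjusted p = 0.00932). The call was lost without library a of the deprived EV group or without either regular EV library, with adjusted p between 0.0511 and 0.118, and the table cannot tell the construct from the native gene. CCN2 (CTGF), a classic YAP/TAZ target, went from 108.1 and 108.6 to 69.04 and 72.6 CPM (-0.61), while CCN1 (CYR61) was at 136.9 and 139.9 CPM in regular medium and 144.0 and 144.0 CPM in glucose-deprived medium and was not called (adjusted p = 0.181). With the EV libraries fitted alone CCN1 was called, with an adjusted p of 0.0355. THBS1, thrombospondin 1, went from 3927 and 4013 to 1904 and 1935 CPM and CRIM1, a BMP-binding membrane protein, from 299.9 and 304.8 to 169.7 and 173.5 CPM. CCN3, of the CCN family, rose from 10.4 and 10.2 to 59.05 and 57.1 CPM, and IGFBP3, picked after its value was seen, from 14.4 and 13.8 to 67.99 and 51.97 CPM. Over 27 tested targets 18 were lower (66.7% against 38.7%) and 7 higher, with a median of -0.47. Of 16 TAZ, YAP, TEAD and Hippo genes 13 were lower (81.2% against 38.7%). NF2, an upstream regulator, changed by -0.77, the kinase STK3 by -0.70 and VGLL3, a TEAD cofactor, by -0.90.

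Cytoskeletal genes were mostly lower as well. The series is about disulfidptosis, a death in which actin proteins become disulfide-linked. ACTB, beta-actin, was picked after its value was seen and went from 8018 and 8066 to 4956 and 5112 CPM (-0.68). TPM1, a tropomyosin, went from 1209 and 1212 to 623.7 and 630.1 CPM (-0.95), and ACTN1, an actin crosslinker, changed by -0.58. WASF2, a WAVE complex subunit, was one of the 6 higher genes, from 227.3 and 231.2 to 339.0 and 338.4 CPM. Of 41 tested genes 26 were lower (63.4% against 38.7% of all genes) with a median of -0.19. The higher count was smaller without library a of the deprived EV group. Among 40 collagens, laminins and integrins 14 were higher and 14 lower, or 9 lower without library a of the regular EV group; ITGA4 (-1.05), COL5A1 (-0.74) and COL4A1 (-0.59) were the most firmly lower. Of 7 metallothionein and zinc genes the zinc importer SLC39A14 was at 0.88, the exporter SLC30A1 at -1.02 and MT1E at -1.14.

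Identity markers of glia and neurons moved individually. SOX2, a stem cell factor, stood at 54.3 and 56.00 CPM in regular medium and 16.9 and 16.7 CPM in glucose-deprived medium (-1.72), and NES, nestin, went from 786.6 and 788.4 to 376.2 and 395.2 CPM (-1.03). OLIG2, a glial lineage factor, rose from 6.003 and 6.39 to 14.7 and 14.6 CPM. Of 11 tested glioma and mesenchymal markers 3 were higher and 4 lower. Markers of other cell types gave no common shift. Among the 3 oligodendrocyte markers tested MAG rose (1.67) and CNP fell (-0.91), and the summed CPM of the list was 186.2 and 184.4 in regular medium and 154.5 and 160.3 in deprived medium. Of 5 neuron markers SYT1 rose (1.69) and MAP2 fell (-0.34); SNAP25 fell by 0.36, a call lost without library b of the deprived EV group (adjusted p = 0.0854) or of the regular EV group (adjusted p = 0.108). CD68, a lysosomal protein also used as a macrophage marker, went from 24.8 and 26.1 to 54.1 and 51.7 CPM. Their part in the results above was not tested.

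**Figure D4:**
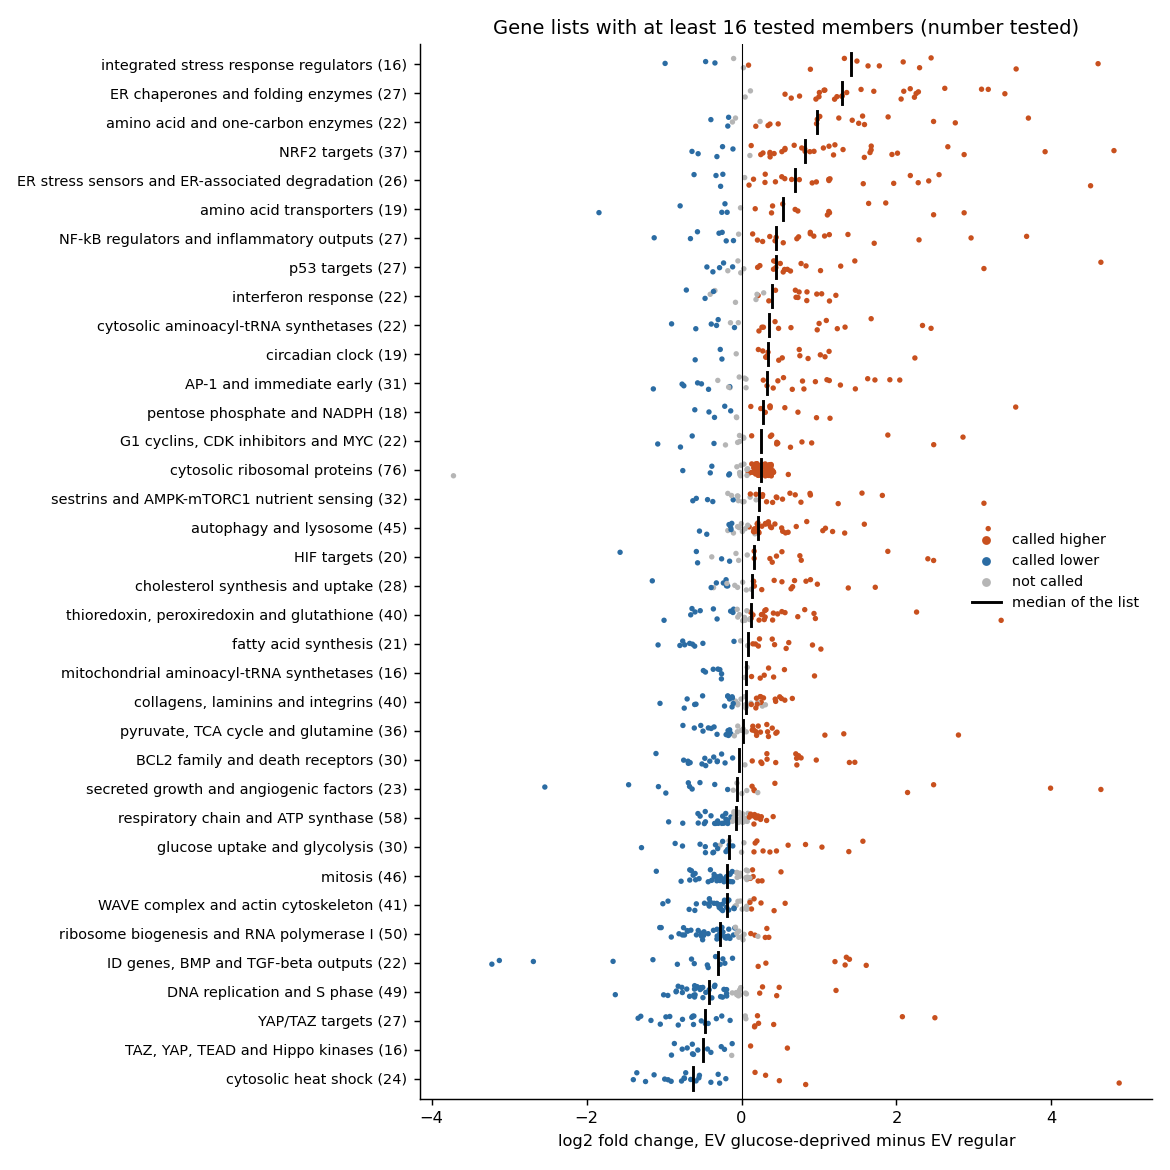
Each row is a gene list with at least 16 tested members, ordered by its median log2 fold change in EV cells (black bar); points are members, orange for called higher, blue for called lower and grey for not called. Integrated stress response regulators (median 1.41) and ER chaperones (1.30) lie at the top and cytosolic heat shock genes (-0.62) at the bottom.

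The response of EV cells was also set beside that of the libraries labelled KO, called KO cells here by that label, with a test of the difference itself. The transcript of the targeted gene does not check the label: TXNRD1 went from 244.8 and 249.5 to 370.4 and 350.8 CPM in the libraries labelled KO, while in EV cells it went from 262.8 and 260.6 to 508.7 and 492.7 CPM. In regular medium both KO libraries were slightly below both EV ones, and loss of the protein cannot be read from a count over the whole gene. The difference is the KO response minus the EV response. It was called for 563 genes (4.31%), 301 of them with the KO response higher and 262 lower. That count depended on single libraries. It was 147 without library a and 183 without library b of the regular EV group, 176 and 162 without library a or b of the deprived EV group, and 1579 and 368 without library a or b of the deprived KO group. Of the 1237 genes called at 2-fold or more in EV cells 1193 were called in the same direction in KO cells and 1 in the opposite direction. The KO response was called, either way, for 9572 of all 13057 genes tested. A called difference was found for 112 of the 1237, beside 563 (4.31%) of all genes tested.

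Of the 4 lists described here, heat shock genes had the largest share of called differences. Over all 13057 genes tested a higher KO response was called for 301 and a lower one for 262. HSPA6 rose in EV cells by 4.88 and in KO cells from 5.53 and 5.03 to 693.0 and 775.4 CPM, a difference of 2.24 ± 0.11 (SE, adjusted p = 2.44e-06). HSPH1, an HSP110 chaperone, fell from 342.9 and 341.4 to 227.5 and 228.1 CPM in EV cells and rose from 353.7 and 358.5 to 712.4 and 753.1 CPM in KO cells, a difference of 1.63 ± 0.048 (SE, adjusted p = 4.47e-08). DNAJB1 rose in both, by 0.83 and 2.67, and BAG3 by 0.49 and 1.81. HSPA8 and DNAJA1 fell less in KO cells, by 0.79 and 0.45 on the log2 scale. Of the 24 genes 20 had a called difference toward a higher KO response, from 18 to 20 over the alternatives, and the group median was -0.088 in KO cells against -0.62 in EV cells. HSPH1, DNAJB1 and BAG3 were picked after their values were seen.

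Some NRF2 targets showed the opposite difference. Over all 13057 genes tested a lower KO response was called for 262 and a higher one for 301. SLC7A11 rose by 2.87 in EV cells and in KO cells from 179.8 and 194.5 to 509.6 and 502.7 CPM, a difference of -1.44 ± 0.058 (SE, adjusted p = 7.43e-07). NMRAL2P rose by 3.92 in EV cells and by 1.37 in KO cells, where it went from 10.99 and 12.1 to 28.98 and 30.6 CPM, so that both regular KO libraries were already above both regular EV libraries. NQO1 rose by 0.88 and 0.41, a difference of -0.47 ± 0.044 (SE, adjusted p = 0.00037). In KO cells it went from 260.5 and 265.2 to 353.0 and 347.7 CPM. The KO libraries of SLC7A11, NMRAL2P and NQO1 were above the EV ones in both media, so a lower response was not a lower level. Of 37 targets 10 had a called difference toward a lower KO response, from 8 to 11 over the alternatives. HMOX1, on the same list, rose by 4.81 and 4.78, and its difference of -0.026 ± 0.069 (SE, adjusted p = 0.858) was not called. For DDIT3 (-0.20, adjusted p = 0.0836) and HSPA5 (0.23, adjusted p = 0.0509) the difference was not called, while XBP1 rose more in KO cells by 0.33 and ATF4 less, with a difference of -0.29 (adjusted p = 0.00854). XBP1 kept its call under each of the 13 alternatives. ATF4 lost its call without library a of either EV group or without the variance trend (adjusted p between 0.0661 and 0.08). DDIT3 gained one without library a of the deprived KO group (0.0251), and HSPA5 without either deprived KO library (0.0357 and 0.0196) or under another filter (0.0467 and 0.0493). Of 46 mitosis genes 20 had a lower KO response, but 6 to 8 when any 1 EV library was left out and 5 without the variance trend. A higher KO response was called for 15 of 31 immediate early genes, FOS among them (1.98), or 9 without library b of the deprived EV group.

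**Figure D5:**
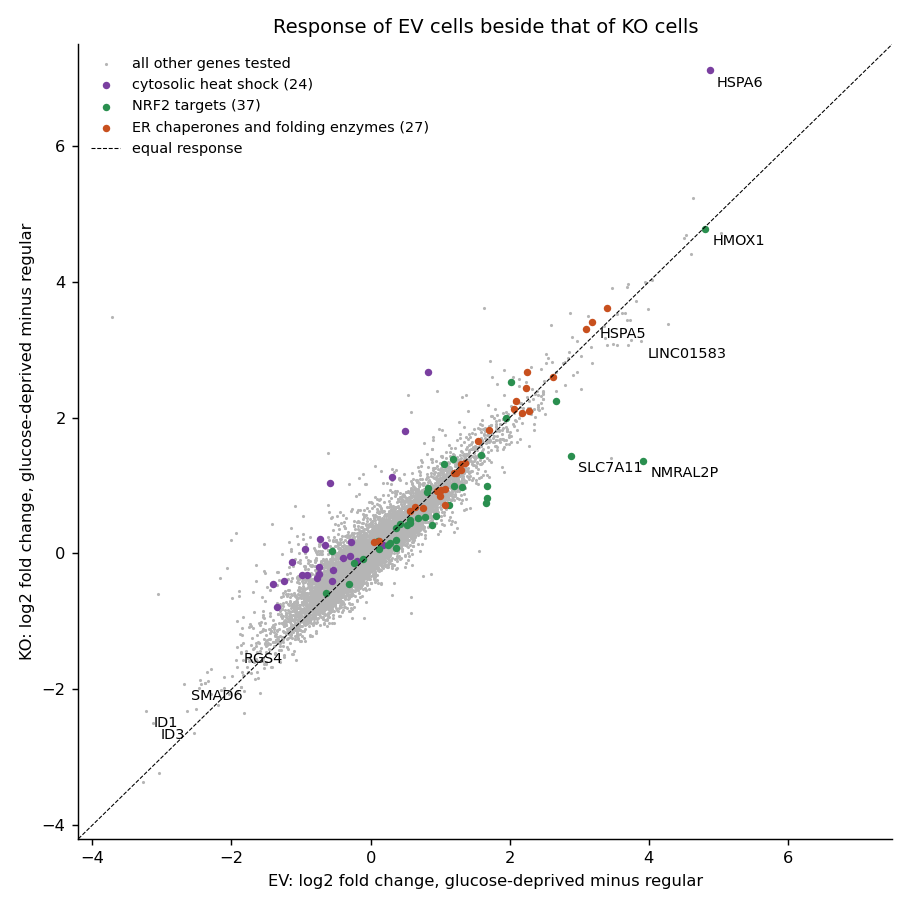
Each point is a gene: the horizontal axis is its log2 response to deprivation in EV cells and the vertical axis that in KO cells, with the dashed line marking equal responses. Heat shock genes (purple) lie mostly above the line and several NRF2 targets (green), with SLC7A11 and NMRAL2P farthest out, below it, while ER chaperones (orange) lie near it.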

How the data were processed

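Total RNA in 8 libraries was sequenced with the SMART-Seq mRNA HT and Nextera XT kits, per the labels' protocols. The values are log2 CPM deposited by the authors, 1 column per library; the submitters' processing notes name HISAT2, edgeR and GRCh38, and the counting tool, annotation, strand setting and gene filter are not given in the sources used here. From the steps between low values, 1 read was worth 0.00948 to 0.0143 CPM, and the depths were computed from these; CPM was obtained by removing an offset of 0.023 CPM, taken from the lowest value. Genes were compared with limma 3.58.1 in R 4.3.3 (trended variance, 4 groups of 2 libraries in 1 fit, 4 residual and 6.29 prior degrees of freedom), with Benjamini-Hochberg adjustment over 13057 genes. The 673 genes below the filter were left out. The script was tested on simulated data. Reads from antisense or overlapping genes could not be separated. Entrez identifiers of 13646 genes were found in RefSeq, from which positions come.

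The cells, the 45 gene lists and the tests were chosen with earlier results of these data known. Genes were named by a rule: a panel, the 12 largest rises and falls, and up to 3 called genes of each list. Those of a list had the smallest adjusted p. The rises and falls had to be called, carry a symbol, reach 10 CPM in the higher group and show no overlap between the media. A further 46 genes were chosen after their values were seen, and some named genes are not reported here. Promoter windows came from RefSeq (GRCh38.p14), the first listed per gene. Alternatives tried were no variance trend, EV libraries only, other filters, log2(CPM + 1), median-of-ratios scaling and leaving out each library.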

Additional observations from a re-analysis of the deposited data

Results flagged for a closer look

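Among the panel genes and the 12 largest rises and falls, 8 had a response to deprivation that differed between the libraries labelled KO and EV by at least 0.5 on the log2 scale, by the test of the difference itself. The KO response was higher than the EV response by 2.24 for HSPA6 (adjusted p = 2.44e-06). The difference, KO minus EV, was -1.44 for SLC7A11 (adjusted p = 7.43e-07) and -2.55 for NMRAL2P (adjusted p = 8.02e-06), which rose in both. These 3 calls held under each of the 13 alternatives in which the difference could be fitted. The other 5 were closer to the threshold. LINC01583, which rose in both, had a difference of -0.76 (adjusted p = 0.0134) and lost the call without either deprived EV library or library a of the regular EV group (up to 0.0893). The fall was smaller in KO by 0.90 for ID1 (adjusted p = 0.0167), 0.77 for SMAD6 (adjusted p = 0.0458), 0.64 for ID3 (adjusted p = 0.0402) and 0.55 for RGS4 (adjusted p = 0.0202). Each of these 4 lost the call in 5 to 8 of the 13 alternatives, with adjusted p up to 0.0946 for ID1, 0.19 for SMAD6, 0.15 for ID3 and 0.119 for RGS4: all 4 without library a of either EV group, without library b of the regular EV group or without the variance trend, ID1, SMAD6 and RGS4 without library b of the deprived EV group, SMAD6, ID3 and RGS4 without library a of the regular KO group, and SMAD6 and ID3 without library b of the regular or deprived KO group.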

How the results depend on the processing

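No paired analysis was possible because the columns carry no replicate numbers, so the replicate block could not be fitted. The numbers of genes called higher or lower in deprived EV cells, and the number called at least 2-fold higher, stayed within 1.5 times their reported values under each of the 14 alternatives. The number called at least 2-fold lower was 286 on the log2(CPM + 1) scale, against 454, since that scale shrinks the changes of low genes. The number of genes whose response differed between KO and EV cells was 223 without the variance trend, against 563, and ran from 147 to 1579 when single libraries were left out; the cause was not tested. Of the EV responses of named genes under an alternative, 2784 of 2799 kept direction and side of the threshold, 8 lost the threshold (WWTR1, SNAP25 and HSF2), 7 passed it (CCN1 and ERO1A) and none reversed. Of 2520 counts per list, 61 moved by more than 1.5 times. The shallowest EV library held 70083018 reads, at which 1 read is 0.0143 CPM, and the precision is limited by the 2 libraries per group.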
